A study of Mus musculus with 12 samples.

Results

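The mRNA levels of 9 genes whose products control how RNA polymerase II (Pol II) leaves the promoter-proximal pause and elongates were examined in cultured mouse cortical neurons. The genes were named by function, with earlier results of these data known, and were found in the count table by their symbols: Polr2a, Cdk9, Ccnt1, Ccnt2, Hexim1, Larp7, Cdk12, Ell2 and Sub1. All 9 were among the 23893 genes of the table. The study asked how the loss of topoisomerase 1 (TOP1) compares with its inhibition by topotecan, and RNA-seq was run on 12 libraries, 3 in each of 4 groups. Cultures were made from embryos at E13.5 to E15.5 (embryonic days). The sources differ on the animals: the labels give the strain as C57BL6 and name wild-type C57BL6/J females, whereas the study's RNA-seq methods give Top1 fl/fl neurons (homozygous for the floxed allele) for both viruses, and the genotype names below follow those methods. Infection was at DIV 3 (DIV, days in vitro), by lentivirus carrying tdTomato alone (the groups labelled wild-type, WT) or tdTomato-P2A-CRE (Top1 cKO), both from the CaMKIIα promoter, so that CRE was made in neurons and not in the other cells of the dish. The labels give a transduction of about 85 to 90%, so each Top1 cKO culture still held cells without CRE. By those methods no group had CRE without floxed Top1, so loss of TOP1 and CRE itself cannot be told apart. Below, deletion names the contrast between these viruses. At DIV 15 the cells received 300 nM topotecan (WT-Topot, Top1 cKO-Topot) or vehicle, 0.003% DMSO (WT-Veh, Top1 cKO-Veh), and they were harvested 3 days later.

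After initiation, Pol II stops a short way into most genes, held by the factors DSIF and NELF, until the kinase P-TEFb (CDK9 with cyclin T1 or T2) phosphorylates these factors and the tail of the large subunit, RPB1, which Polr2a encodes. Much of the P-TEFb in a cell is kept inactive in the 7SK snRNP, where HEXIM1 binds the kinase and LARP7 holds the 7SK RNA. ELL2 is an elongation factor of the super elongation complex, CDK12 keeps the Pol II tail phosphorylated along genes, and SUB1 (PC4) is a coactivator that binds single-stranded DNA. TOP1 travels with Pol II and removes the supercoils that transcription makes, and topotecan traps TOP1 on the DNA strand it has cut.

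Promoters are shown for Hexim1, Sub1, Polr2a and Ell2, the 4 of the 9 genes with the largest log2 fold changes both after deletion alone and with topotecan in WT cells, so that their makeup can be set beside the changes in mRNA. They come from the RefSeq promoter table, as 250 bases before to 30 after the RefSeq start, 5′ to 3′ along the gene, and each matched the NCBIM37 (mm9) genome exactly at 1 place. Windows were shortened where the GENCODE vM1 annotation starts a transcript earlier, so that at most 30 bases of an annotated first exon are printed. Capitals mark matches, on either strand, to any of 6 motifs, the GC box, CCAAT box, TATA box, cAMP response element, AP-1 site and E-box, whose letters are given with the counts. The printed stretches lie at chr11:102977389-102977668 (+, Hexim1), chr15:11925784-11926012 (-, Sub1), chr11:69572110-69572385 (-, Polr2a) and chr13:75844682-75844961 (+, Ell2). The Sub1 stretch lies inside the gene as GENCODE vM1 annotates it (chr15:11911094-11926738), downstream of the outermost annotated start.
Hexim1: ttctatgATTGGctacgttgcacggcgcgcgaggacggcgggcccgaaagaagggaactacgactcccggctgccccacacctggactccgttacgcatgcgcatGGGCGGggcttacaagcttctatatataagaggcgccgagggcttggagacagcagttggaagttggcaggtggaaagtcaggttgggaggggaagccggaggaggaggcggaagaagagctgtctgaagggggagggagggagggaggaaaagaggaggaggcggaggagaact
Sub1: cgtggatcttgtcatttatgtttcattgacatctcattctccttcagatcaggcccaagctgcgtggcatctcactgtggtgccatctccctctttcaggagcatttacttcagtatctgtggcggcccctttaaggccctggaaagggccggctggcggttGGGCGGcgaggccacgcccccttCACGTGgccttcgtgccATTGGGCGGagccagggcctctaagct
Polr2a: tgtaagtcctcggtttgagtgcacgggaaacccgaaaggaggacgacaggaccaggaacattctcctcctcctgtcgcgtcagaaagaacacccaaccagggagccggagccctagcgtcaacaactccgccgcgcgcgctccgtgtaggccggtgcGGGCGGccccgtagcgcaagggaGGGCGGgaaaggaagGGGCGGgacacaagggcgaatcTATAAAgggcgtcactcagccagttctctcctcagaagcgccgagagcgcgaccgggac
Ell2: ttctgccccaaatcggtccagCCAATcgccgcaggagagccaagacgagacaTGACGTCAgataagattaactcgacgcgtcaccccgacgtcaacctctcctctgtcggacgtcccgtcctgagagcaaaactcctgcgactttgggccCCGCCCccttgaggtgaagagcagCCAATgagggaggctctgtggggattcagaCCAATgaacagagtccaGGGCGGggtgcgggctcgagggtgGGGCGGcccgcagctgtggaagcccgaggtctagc

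The 280-base windows of Polr2a, Ell2, Hexim1 and Sub1 held 29, 21, 19 and 17 CpG dinucleotides, and the median over the 32851 promoters of the table was 6. A GC box (GGGCGG) was found in the windows of all 9 genes and in 34.7% of all promoters, with 3 matches each in Polr2a and Ell2, 2 in Sub1 and 1 in Hexim1. The CCAAT box was searched as its own letters. Ell2 had 3 of them, and Hexim1 and Sub1 had 1 each, and 36.1% of all promoters held at least 1. In Sub1 the match, which is on the other strand, overlaps the second GC box. Among the 9 genes, only Polr2a matched the TATA box letters (TATAAA, 13.1% of all promoters), and variants of these letters were not searched. Only Sub1 had an E-box (CACGTG, 6.79% of all promoters). The cAMP response element (TGACGTCA) was found in 1 place in Ell2 and in 2 places in Larp7 (1.74% of all promoters). The AP-1 letters, TGANTCA, were in none of the 9 windows and in 7.46% of all promoters. These matches describe the letters of the windows and no binding was measured.

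The libraries held 1730164 to 4583777 counts over genes, so that the 9 genes were covered by as few as 8 counts (Larp7) and as many as 1965 (Sub1) per library. Levels are given in CPM, the counts of a gene scaled to the TMM-adjusted size of its library. Top1, the targeted gene, was at 117 to 163 CPM in the 6 libraries infected with tdTomato alone and at 27.1 to 44.0 CPM in the 6 infected with tdTomato-P2A-CRE. The 8 neuron markers summed to 5252 to 7011 CPM per library and none was below 1 CPM in any group. Single neuron markers went both ways between WT-Veh and WT-Topot. In these 2 groups in turn, the means were 449 and 215 CPM for Gad1, 157 and 80.2 for Rbfox3, 1397 and 947 for Snap25, and 1458 and 1082 for Map2. Slc17a7 was at 1010 and 1375 CPM and Tubb3 at 402 and 548, while Camk2a (1156 and 1186) and Neurod6 (221 and 217) differed little. The sum of the 5 astrocyte markers (Gfap, Aqp4, Aldh1l1, Slc1a3 and Gja1, none below 1 CPM in any group) was 935 to 2756 CPM in WT-Veh, 313 to 661 in WT-Topot, 866 to 2999 in Top1 cKO-Veh and 308 to 1005 in Top1 cKO-Topot. The sum was thus lower in topotecan-treated WT cultures than in every vehicle culture, and in Top1 cKO cultures the means of all 5 markers were also lower with topotecan (Gfap 674 and 242 CPM, Slc1a3 620 and 267, with vehicle and topotecan), with sums that overlapped. The part of this in the results below was not tested. In bulk RNA, fewer cells of a type and less RNA per cell cannot be told apart. The 4 microglia markers summed to at most 12.3 CPM, and the endothelial marker Cldn5 was at 0 in 3 of the 4 groups.

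Relative to WT-Veh, Hexim1 and Sub1 rose in WT-Topot cells, and Sub1 rose in Top1 cKO-Veh cells. A gene was called when edgeR's quasi-likelihood test gave an adjusted p under 0.01 (Benjamini-Hochberg over all 23893 genes). By this rule 2 of the 9 genes were higher in WT-Topot, where 1.19% of the 13736 genes at a mean of 1 CPM or more were, and 0 were lower (3.55% of genes). In Top1 cKO-Veh 1 of 9 was higher and 0 lower, against 0.0803% and 0.219% of genes. Topotecan moved none of the 9 past the threshold in Top1 cKO cells, where 0% of genes were called higher and 0.0147% lower. In Top1 cKO-Topot against WT-Veh, 2 of 9 were higher and 0 lower (0.824% and 2.11% of genes). The first, the second and the last of these comparisons share the WT-Veh libraries. Because the 9 genes were chosen with earlier results of these data known, the shares are descriptions and not a test of excess. The median log2 fold change of the 9 genes was 0.18, 0.17, 0.15 and 0.32 in these 4 comparisons in turn. That of the genes at a mean of 1 CPM or more was 0.03, -0.01, 0 and 0.02.

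Deviations from the group means were shared between libraries of 1 replicate number, and the replicate number was therefore also fitted as a block. For a pair of groups, this fit left little in 6 libraries to estimate a gene's own variance, and edgeR borrowed variance information across genes. Very small p-values with the block therefore do not measure the spread of the same-number ratios alone. With the block, 4 of the 9 genes were called in WT-Topot against WT-Veh: Hexim1, Sub1 and Polr2a higher and Ell2 lower, where 5.64% of genes were called higher and 8.7% lower. In Top1 cKO-Veh against WT-Veh, Hexim1, Sub1 and Polr2a were called higher and none lower (4.54% and 5.15% of genes). In Top1 cKO-Topot against Top1 cKO-Veh, Hexim1 and Polr2a were called higher and none lower (1.5% and 3.05% of genes). In Top1 cKO-Topot against WT-Veh, the 3 genes called higher were Hexim1, Sub1 and Polr2a, and none was lower (5.83% and 7.01% of genes).

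**Figure D1:**
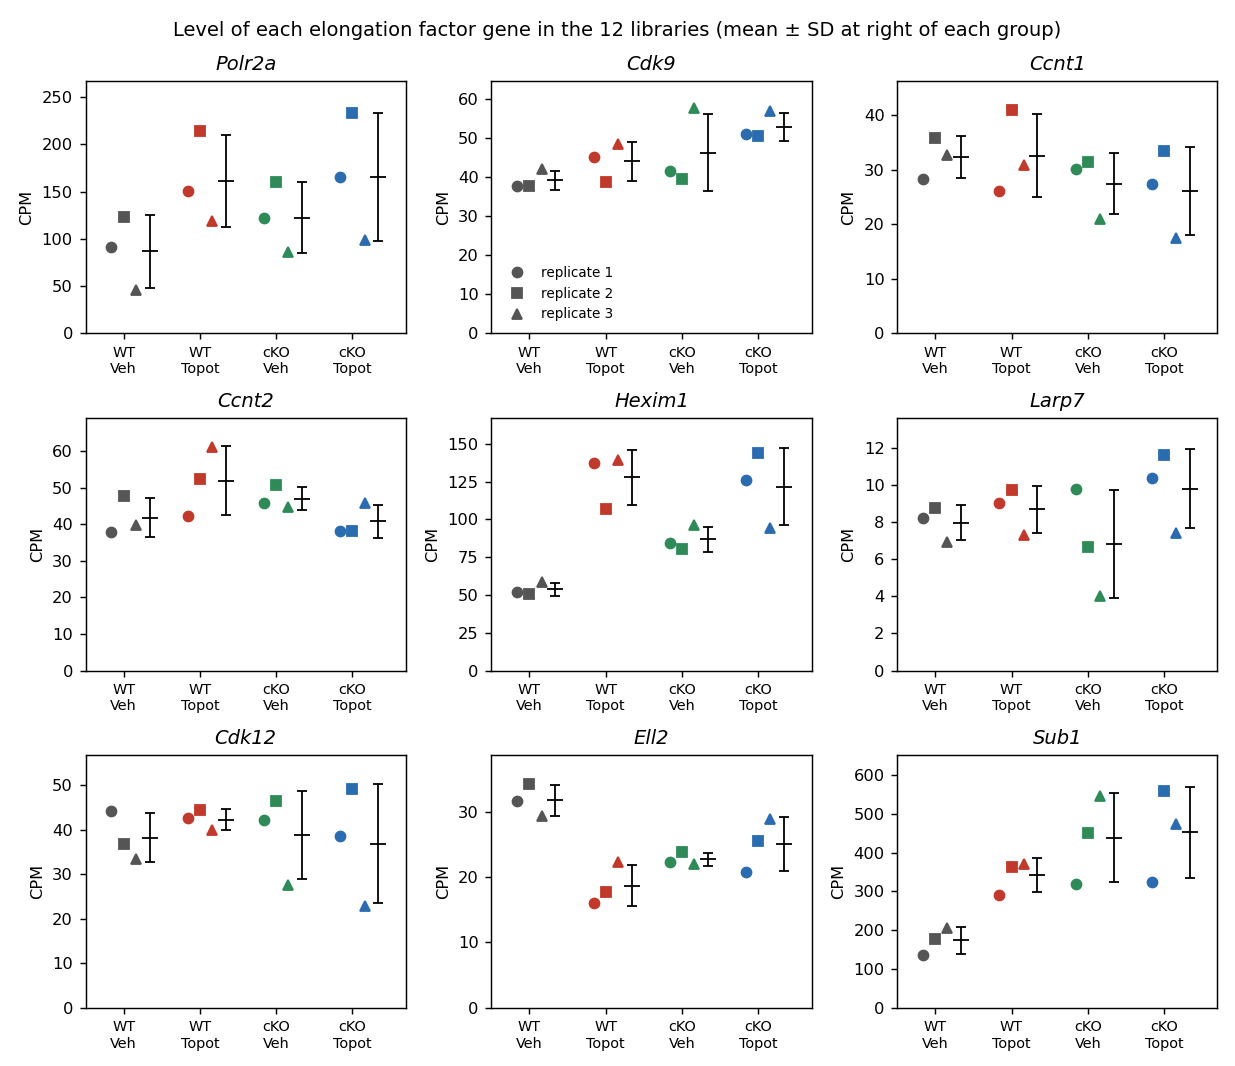
Levels in CPM (vertical axes from 0, scaled to the TMM-adjusted library size) of the 9 genes in each library of the 4 groups. Circles, squares and triangles stand for replicates 1, 2 and 3, and the black bar beside each group is its mean ± SD (n = 3). Hexim1 and Sub1 lie lowest in the 3 WT-Veh libraries, Ell2 lies highest there, and Polr2a is ordered by replicate number in every group.

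Hexim1 encodes the inhibitor that binds P-TEFb in the 7SK snRNP. The gene lies at chr11:102977639-102981039 on the + strand and is a single exon of 3.401 kb. Its mRNA was at 52.1, 50.8 and 58.7 CPM in WT-Veh replicates 1, 2 and 3, and at 137, 107 and 139 CPM in WT-Topot. In Top1 cKO-Veh it was at 84.1, 80.4 and 96.2 CPM, and in Top1 cKO-Topot at 126, 144 and 93.99 CPM. The WT-Veh libraries were below those of every other group, where 12.9%, 9.58% and 12.1% of all genes were higher without overlap with topotecan alone, with deletion alone and with both, in turn. A copy at 1 other locus covers 16.8% of its transcript at 97.2% identity. The 2 groups of Top1 cKO cells overlapped through replicate 3.

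Hexim1 rose 2.39-fold in WT-Topot relative to WT-Veh (log2 fold change 1.26, SE 0.197, adjusted p = 0.000344 by edgeR's quasi-likelihood test). The ratios between libraries of the same replicate number were 2.64, 2.11 and 2.37. Adjusted p ranged from 2.25e-11 to 0.00203 over 13 alternative settings and the gene was called in all 13. In Top1 cKO-Topot the rise over WT-Veh was 2.3-fold (1.20, SE 0.211, adjusted p = 0.00155), called in 12 of 13 alternatives with adjusted p from 6.86e-07 to 0.0283. The exception left out Top1 cKO-Topot replicate 2 (log2 fold change 1.03).

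Deletion alone gave a smaller value for Hexim1, 0.69 on the log2 scale in Top1 cKO-Veh against WT-Veh (SE 0.197, 95% interval 0.27 to 1.11). It was not called without the replicate block (adjusted p = 0.165) and was called with it (adjusted p = 0.000353). The 3 same-number ratios were close to each other, at 1.61, 1.58 and 1.64. Compared directly, WT-Topot cells had more Hexim1 mRNA than Top1 cKO-Veh cells in all 3 same-number pairs, by 0.56 (SE 0.180, adjusted p = 0.118, and 0.00149 with the block). The groups of this comparison did not overlap for Hexim1 alone of the 9 genes, where 12.2% of genes were higher without overlap.

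In Top1 cKO cells topotecan gave Hexim1 a log2 fold change of 0.50 (SE 0.193, adjusted p = 0.928, and 0.00324 with the block). The same-number ratios were 1.5, 1.79 and 0.977, so replicates 1 and 2 were higher with topotecan and replicate 3 was level. The difference between the topotecan effects in Top1 cKO and in WT cells was -0.76 (SE 0.264, 95% interval -1.31 to -0.21). Its adjusted p was 0.26 without and 0.018 with the block, and neither passed the threshold of 0.01.

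**Figure D2:**
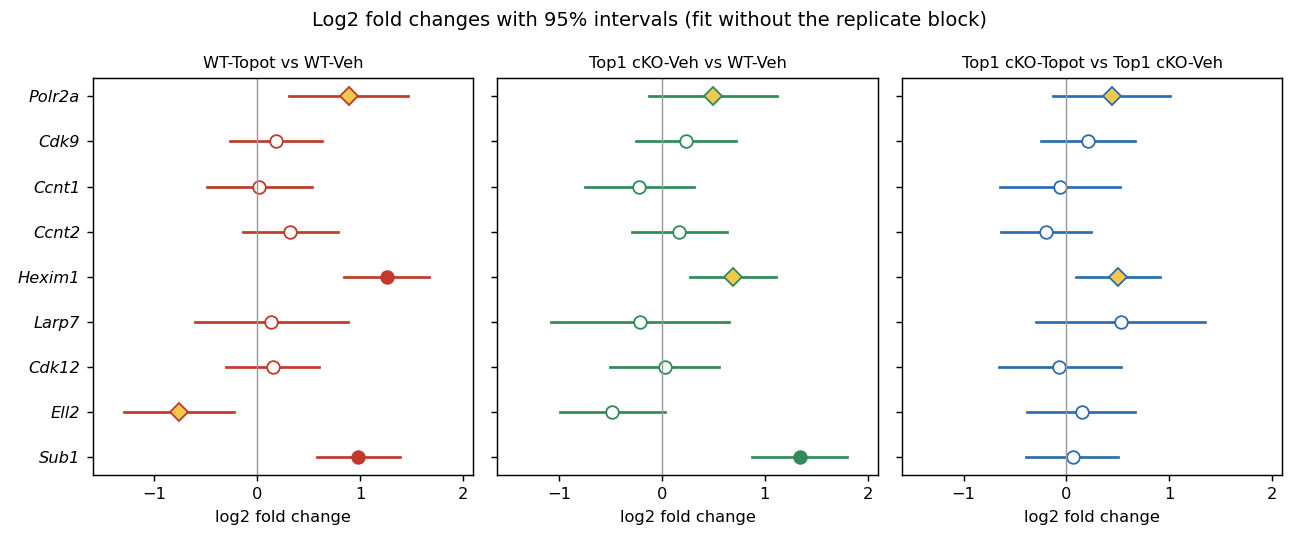
Log2 fold changes of the 9 genes (horizontal axes) in 3 comparisons, with 95% intervals from the fit without the replicate block (n = 3 libraries per group). Filled circles mark adjusted p under 0.01 without the block, yellow diamonds mark genes that passed only with the block, and open circles mark the rest. Hexim1 and Sub1 are filled at 1.26 and 0.98 in the left panel, Sub1 alone at 1.34 in the middle panel, and no gene is filled in the right panel.

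Larp7 encodes the protein that binds and protects the 7SK RNA. At chr3:127239872-127256266 (-), it had the lowest counts of the 9 genes, 8 to 35 per library. Its levels were 8.19, 8.77 and 6.91 CPM in WT-Veh and 9.05, 9.73 and 7.28 in WT-Topot. The Top1 cKO libraries had 9.78, 6.64 and 4.01 with vehicle and 10.4, 11.6 and 7.43 with topotecan. All groups overlapped. The log2 fold changes were 0.13 (95% interval -0.61 to 0.88) with topotecan in WT cells, -0.21 (-1.08 to 0.65) with deletion and 0.53 (-0.30 to 1.35) with topotecan in Top1 cKO cells, and a change within these intervals was not detectable at this depth. Copies at 3 other loci cover 90.7% of its transcript, the longest at 90.4% identity, and its counts may be shared with them.

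Of the other 7SK snRNP genes, Mepce encodes the enzyme that caps the 7SK RNA and Hexim2 a paralogue of HEXIM1 that also inhibits P-TEFb. Mepce was at 39.7 to 48.3 CPM in WT-Veh and at 44.5 to 54.6 in WT-Topot. Hexim2 was at 7.45 to 24.2 CPM in WT-Veh and at 16.03 to 22.3 in WT-Topot. Neither was called in any of the 6 comparisons, with or without the block. The rise was thus seen for Hexim1 and was not detected for its paralogue, and the difference between the paralogues was not tested.

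Cdk9 encodes the kinase of P-TEFb (chr2:32561304-32568596, -). It was at 37.7, 37.7 and 42.0 CPM in WT-Veh and 45.2, 38.6 and 48.4 in WT-Topot. In Top1 cKO cells the values were 41.5, 39.6 and 57.6 with vehicle and 51.0, 50.5 and 56.8 with topotecan. The Top1 cKO-Topot libraries were above all of WT-Veh (as were 12.1% of all genes), and the same-number ratios to WT-Veh were 1.35, 1.34 and 1.35. The log2 fold change against WT-Veh was 0.45 (SE 0.219, adjusted p = 0.375, and 0.114 with the block), and it was called in none of 13 alternatives. Topotecan in WT cells gave 0.18 (95% interval -0.27 to 0.63) and deletion 0.23 (-0.25 to 0.72). A copy at 1 other locus covers 87.5% of the Cdk9 transcript at 96.6% identity, so its counts may be shared.

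The cyclins of P-TEFb are encoded by Ccnt1 (chr15:98369120-98401354, -) and Ccnt2 (chr1:129670741-129704638, +). Ccnt1 was at 28.4, 35.9 and 32.8 CPM in WT-Veh and 26.1, 40.9 and 30.8 in WT-Topot. With CRE it was at 30.1, 31.4 and 21.0 in the vehicle group and at 27.5, 33.5 and 17.5 with topotecan. Ccnt2 was at 37.7, 47.8 and 39.7 CPM in WT-Veh and 42.2, 52.4 and 61.2 in WT-Topot. The Top1 cKO libraries had 45.8, 50.6 and 44.6 with vehicle and 38.2, 38.2 and 45.9 with topotecan. The groups overlapped for both cyclins in every comparison. With topotecan in WT cells the log2 fold changes were 0.02 for Ccnt1 (95% interval -0.49 to 0.53) and 0.32 for Ccnt2 (-0.14 to 0.78). Deletion gave -0.22 (-0.75 to 0.31) and 0.17 (-0.29 to 0.63), and neither gene was called in any comparison with or without the block. A copy at 1 other locus covers 14.7% of the Ccnt2 transcript at 97.9% identity. An opposite-strand gene, 9330020H09Rik, overlaps 7.59% of the Ccnt1 exon bases, and whether the counting used strand is not given in the sources used here.

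Polr2a encodes RPB1, the catalytic subunit of Pol II whose tail P-TEFb and CDK12 phosphorylate. The gene spans 24.64 kb at chr11:69547499-69572139 (-) and has 29 exons. It was at 91.9, 123 and 45.5 CPM in WT-Veh replicates 1, 2 and 3, and at 150.1, 214 and 119 CPM in WT-Topot. The levels were 122, 160.3 and 85.7 CPM in Top1 cKO-Veh and 165, 233 and 98.4 CPM in Top1 cKO-Topot. In every group replicate 2 was highest and replicate 3 lowest, and the groups overlapped in every comparison.

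Within same-number pairs Polr2a was higher in WT-Topot than in WT-Veh, by 1.63, 1.74 and 2.61-fold. The log2 fold change was 0.89 without the block (SE 0.275, adjusted p = 0.0788) and 0.93 with it (SE 0.143, adjusted p = 8.59e-08). One library decided the call without the block: leaving out WT-Veh replicate 2 gave 1.21 and passed the threshold (adjusted p = 0.00739), whereas leaving out WT-Topot replicate 2 gave 0.63 (adjusted p = 0.329) and leaving out WT-Veh replicate 3 gave 0.60 (adjusted p = 0.113). Deletion gave same-number ratios of 1.32, 1.31 and 1.88 and a log2 fold change of 0.50 (adjusted p = 0.766), or 0.53 with the block (SE 0.143, adjusted p = 0.00426). Topotecan in Top1 cKO cells gave ratios of 1.36, 1.45 and 1.15 and a log2 fold change of 0.44 (adjusted p = 1), or 0.42 with the block (SE 0.111, adjusted p = 0.00656). The log2 fold change of Top1 cKO-Topot over WT-Veh was 0.95 (adjusted p = 0.0889), or 0.97 with the block (adjusted p = 2.93e-06), and with no block it was called without Top1 cKO-Topot replicate 3 (1.21, adjusted p = 0.000705) and not without Top1 cKO-Topot replicate 2 (0.60, adjusted p = 0.585). Leaving out single libraries, with no block, gave 0.60 to 1.27 for that comparison, 0.20 to 0.83 for deletion and 0.12 to 0.70 for topotecan in Top1 cKO cells. Polr2a was thus higher in all 9 same-number pairs of the first 3 comparisons, and with all libraries kept it was called only in the fits with the block. The first 2 of these comparisons share the WT-Veh libraries and the last 2 the Top1 cKO-Veh libraries, so the 9 pairs are not independent. The difference between the topotecan effects of the 2 genotypes was -0.46 (SE 0.449, adjusted p = 1, and 0.088 with the block).

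The spread of Polr2a between replicates ran alongside a property of the libraries. Within a library, the median log2(CPM + 1) of 3175 genes with transcripts of at most 2 kb was subtracted from that of 863 genes with transcripts of at least 5 kb, with genes of 50 kb or more of genomic span left out. This measure was 2.03, 2.24 and 1.78 in WT-Veh and 1.98, 2.23 and 1.95 in WT-Topot. With CRE it was at 2.11, 2.28 and 1.86 in the vehicle group and at 2.25, 2.34 and 1.79 with topotecan. Replicate 2 was highest and replicate 3 lowest in all 4 groups, as for Polr2a, whose longest coding transcript is 6.74 kb. Between WT-Veh and WT-Topot the ranges of the measure overlapped, and within same-number pairs it was lower with topotecan in replicates 1 and 2 and higher in replicate 3. With deletion alone it exceeded the same-number WT-Veh value in all 3 pairs. With deletion plus topotecan it did so too, though narrowly in replicate 3 (1.79 against 1.78). Polr2a was called with the block in each of these comparisons. Within Top1 cKO cells, topotecan went with a higher measure in replicates 1 and 2 and a lower one in replicate 3. The part of the measure in the Polr2a values was not tested. Cdk12, Ccnt1 and Larp7 were also above their group means in replicate 2 (mean log2 deviations of 0.20, 0.28 and 0.16) and below them in replicate 3 (-0.34, -0.23 and -0.37). Of the 4 members with a longest coding transcript of at least 5 kb, Polr2a, Ccnt1 and Cdk12 were thus above their means in replicate 2 and below in replicate 3, and Ccnt2 (6.74 kb) was not, at -0.14, 0.06 and 0.07 in replicates 1, 2 and 3. Of the 5 shorter members, Larp7 (1.88 kb) had this order and Cdk9, Hexim1, Ell2 and Sub1 did not. Sub1 deviated by -0.35, 0.14 and 0.21.

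**Figure D3:**
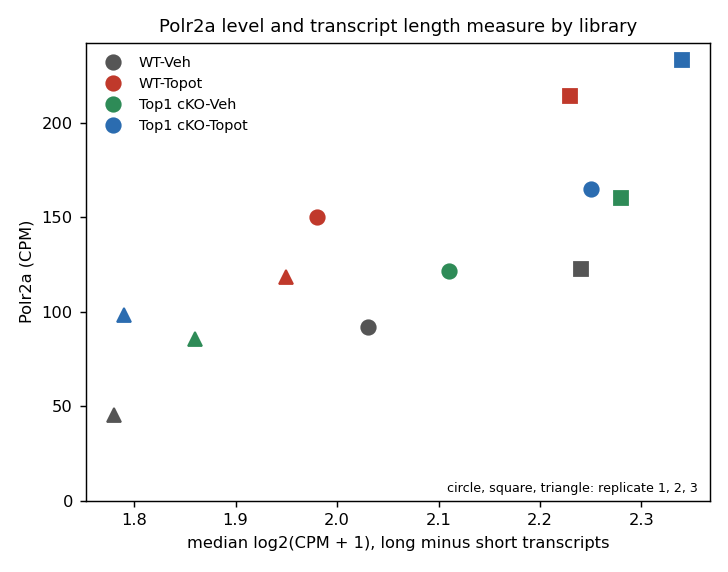
Polr2a level (CPM, vertical axis from 0) against the transcript length measure of each library (median log2(CPM + 1) of genes with long transcripts minus that of genes with short transcripts, horizontal axis). Colours stand for the 4 groups and symbols for the replicate number, and the 12 points are single libraries. Replicate 2 (squares) lies to the right and high in each group and replicate 3 (triangles) to the left and low.

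Cdk12 encodes the kinase that, with cyclin K, phosphorylates the Pol II tail along genes, and at 75.45 kb it is the longest of the 9 (chr11:98064373-98139818, +). It was at 44.2, 36.8 and 33.4 CPM in WT-Veh and 42.6, 44.4 and 39.8 in WT-Topot. In Top1 cKO cells the values were 42.2, 46.5 and 27.6 with vehicle and 38.6, 49.2 and 22.7 with topotecan. All groups overlapped, and replicate 3 was the lowest library in each. A copy at 1 other locus covers 27.3% of the Cdk12 transcript at 92.7% identity. The log2 fold changes were 0.15 (95% interval -0.30 to 0.60) with topotecan in WT cells, 0.03 (-0.50 to 0.56) with deletion and -0.07 (-0.66 to 0.53) with topotecan in Top1 cKO cells. Genes longer than 100 kb had a median log2 fold change of -0.42 in WT-Topot against WT-Veh, those of 50 to 100 kb, the class of Cdk12 and Ell2, -0.01, and those under 10 kb, the class of Hexim1 and Cdk9, 0.11.

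Ell2 encodes an elongation factor that raises the rate of Pol II and belongs to the super elongation complex with P-TEFb. It lies at chr13:75844932-75909804 (+) and spans 64.87 kb. Its levels were 31.6, 34.2 and 29.4 CPM in WT-Veh and 16.1, 17.7 and 22.3 in WT-Topot. With CRE it was at 22.3, 23.8 and 22.0 in the vehicle group and at 20.7, 25.6 and 28.9 with topotecan. The WT-Veh libraries were above those of each other group, and Ell2 was the only one of the 9 genes that was lower without overlap, in each of the 3 comparisons with WT-Veh. Of all genes, 13.2%, 10.3% and 14.5% were lower without overlap in the comparisons of WT-Topot, of Top1 cKO-Veh and of Top1 cKO-Topot with WT-Veh.

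The log2 fold change of Ell2 in WT-Topot was -0.76 (SE 0.255, adjusted p = 0.116), or -0.78 with the block (SE 0.221, adjusted p = 0.00733), and the same-number ratios were 0.509, 0.519 and 0.758. Without WT-Topot replicate 1 the adjusted p was 0.349. Deletion gave -0.48 (SE 0.239, adjusted p = 0.616, and 0.164 with the block), with ratios of 0.705, 0.697 and 0.751. In Top1 cKO cells topotecan gave 0.15 (95% interval -0.38 to 0.67). The difference between the topotecan effects of the genotypes was 0.91 (SE 0.326, 95% interval 0.23 to 1.58), with an adjusted p of 0.296 without and 0.0433 with the block, short of the threshold.

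Sub1 encodes the coactivator PC4, which binds single-stranded DNA and acts at initiation and during elongation. The annotated gene is at chr15:11911094-11926738 (-). Its mRNA was at 137, 178 and 205 CPM in WT-Veh and at 291, 363 and 370.4 CPM in WT-Topot. It was at 319, 450.0 and 547 CPM in Top1 cKO-Veh and at 325, 558 and 474 CPM in Top1 cKO-Topot. The WT-Veh libraries were below those of each other group (12.9%, 9.58% and 12.1% of all genes, in the order given for Hexim1), and replicate 1 was lowest in every group.

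In vehicle-treated cells Sub1 was 2.53-fold higher in Top1 cKO than in WT (log2 fold change 1.34, SE 0.217, adjusted p = 0.00889 by edgeR's quasi-likelihood test), with same-number ratios of 2.34, 2.52 and 2.67. The adjusted p was close to the threshold and was above it in 4 of 13 alternatives: with genes of low counts filtered out (0.0398), and without WT-Veh replicate 1, WT-Veh replicate 2 or Top1 cKO-Veh replicate 2 (log2 fold changes of 1.19, 1.36 and 1.32). With the block it was 1.79e-27, a value that rests largely on variance information shared across genes. Topotecan raised Sub1 1.98-fold in WT cells (0.98, SE 0.192, adjusted p = 0.003), with ratios of 2.13, 2.03 and 1.81. This call held in 11 of 13 alternatives (adjusted p 2.75e-11 to 0.0125) and was lost with low counts filtered out and without WT-Topot replicate 3. In Top1 cKO-Topot, Sub1 was 2.65-fold above WT-Veh (1.41, SE 0.212, adjusted p = 0.000269) and was called in all 13 alternatives (adjusted p 3.21e-11 to 0.00658).

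Topotecan added no detectable change to Sub1 in Top1 cKO cells (0.06, 95% interval -0.39 to 0.50), where the same-number ratios were 1.02, 1.24 and 0.866. The difference between the topotecan effects in Top1 cKO and WT cells was -0.94 (SE 0.302, 95% interval -1.57 to -0.31), with an adjusted p of 0.195 without the block and 1.03e-05 with it. With the block Sub1 was the 1 gene of the 9 called for this difference, where 2.66% of genes were called lower and 4.24% higher. In the fit without the block 0 of 9 were called (0.0656% and 0.692% of genes), and 0 by DESeq2's Wald test, while 2 were lower and 1 higher at an unadjusted p under 0.05 (5.95% and 7.47% of genes). Compared directly, WT-Topot was below Top1 cKO-Veh for Sub1 in all 3 same-number pairs (-0.36, SE 0.186, adjusted p = 0.503, and 0.0103 with the block), the groups overlapping. Copies at 4 other loci share 19.8% of the Sub1 transcript, the longest at 91.1% identity.

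**Figure D4:**
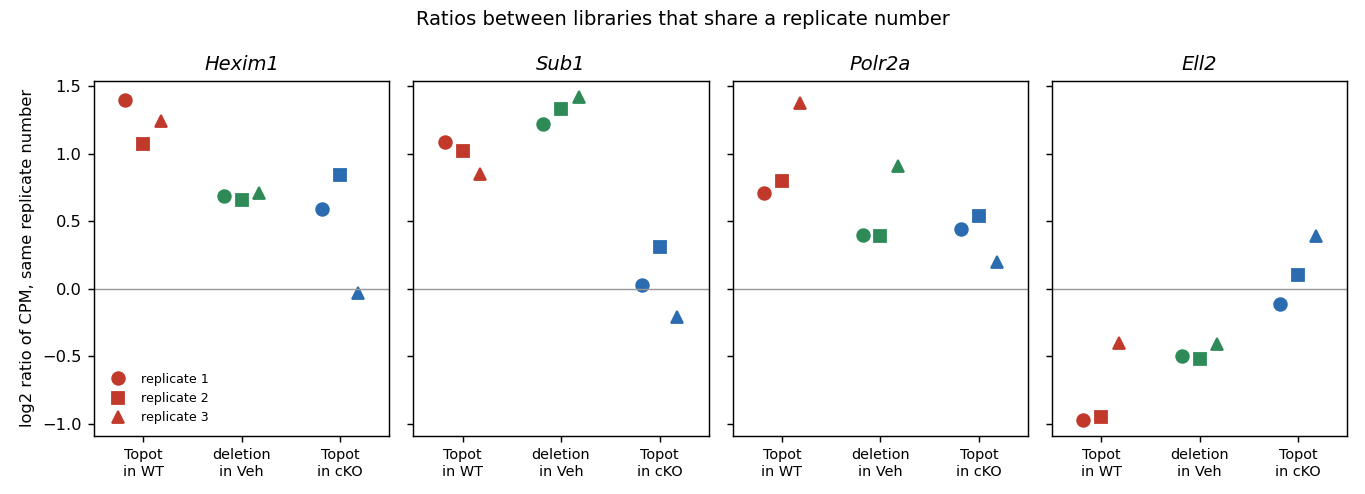
Log2 ratios of CPM between libraries that share a replicate number (vertical axis) for Hexim1, Sub1, Polr2a and Ell2, with topotecan in WT cells (WT-Topot over WT-Veh), with deletion (Top1 cKO-Veh over WT-Veh) and with topotecan in Top1 cKO cells (Top1 cKO-Topot over Top1 cKO-Veh). Each symbol is 1 pair. For Sub1 the first 2 sets lie between 0.85 and 1.42 and the third between -0.21 and 0.31, and for Ell2 the first 2 sets lie below 0.

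In Top1 cKO-Topot against Top1 cKO-Veh none of the 9 genes was called without the block by edgeR's quasi-likelihood test, by DESeq2's Wald test or by edgeR's exact test, and 1, Hexim1, had an unadjusted p under 0.05 (2.56% of genes were higher and 4.37% lower by that rule). No gene of the 9 was without overlap between these groups, where 5.2% of all genes were higher and 6.54% lower without overlap. In WT-Topot against Top1 cKO-Veh the count was also 0 (0.511% of genes were called higher and 2.16% lower), and 0 by DESeq2 and by the exact test, with 1 gene, Hexim1, higher at an unadjusted p under 0.05 (8.9% of genes). With the block Hexim1 was called there (5.11% of genes higher and 8.38% lower).

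Per kb of the longest coding transcript, Sub1 had the highest level of the 9 genes in every group, from 51.4 ± 10.2 CPM per kb (SD, n = 3) in WT-Veh to 134 ± 34.9 in Top1 cKO-Topot. In WT-Veh it was followed by Cdk9 (22.6 ± 1.44 CPM per kb), Hexim1 (15.8 ± 1.25) and Polr2a (12.9 ± 5.77), then by Ell2 (8.70 ± 0.661), Cdk12 (6.45 ± 0.932), Ccnt2 (6.20 ± 0.788), Ccnt1 (4.38 ± 0.514) and Larp7 (4.23 ± 0.505). Of neighbours in this order, Hexim1 and Polr2a, Polr2a and Ell2, Cdk12 and Ccnt2, and Ccnt1 and Larp7 overlapped in their libraries and did not differ beyond their spread. In WT-Topot Hexim1 came next after Sub1, at 37.6 ± 5.31 CPM per kb and above Cdk9 at 25.4 ± 2.87 in every library, and Ell2 moved from the fifth place to the seventh. These places depend on the divisor. Counts were made over all exons of a gene, and for Cdk9 the annotated exons cover 4.61 kb against 1.73 kb for its longest coding transcript. Hexim1, with 3.4 kb of exons, had the higher mean CPM in WT-Veh (53.9 against 39.2 for Cdk9). Per kb of exons it was thus already above Cdk9 there, and the move past Cdk9 did not hold. The annotated exons of Ccnt1, Ccnt2 and Cdk12 cover 9.16, 12.3 and 11.7 kb and those of Larp7 1.88 kb, so their order may change too.

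The genes whose log2(CPM + 1) over the 12 libraries was most like that of Hexim1, out of 9506 compared (mean of 10 CPM or more), were Ctnnb1 (β-catenin; Pearson's r = 0.933), Nup50 (a nuclear pore protein, 0.933) and Kcnk9 (a potassium channel, 0.931). Kcnk9 was at 14.5 to 21.3 CPM in WT-Veh, 46.9 to 62.1 in WT-Topot, 35.2 to 40.6 in Top1 cKO-Veh and 50.2 to 63.8 in Top1 cKO-Topot, with WT-Veh lowest and Top1 cKO-Veh between, as for Hexim1. For Sub1 they were Tspyl4 (0.976), Tmem158 (0.976) and Xiap, an inhibitor of caspases (0.972). Tspyl4 was at 756 to 951 CPM in WT-Veh, 1156 to 1418 in WT-Topot, 1235 to 1939 in Top1 cKO-Veh and 1463 to 2238 in Top1 cKO-Topot. The 12 points share groups, replicate numbers and library depths, and these correlations are descriptions.

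Further genes of the pathway were taken from a list of 68 in 7 roles, of which 66 were in the table and 63 reached a mean of 1 CPM. In none of the 6 comparisons was any of the 66 called by edgeR's quasi-likelihood test without the block. In WT-Topot against WT-Veh, 4 were higher and 1 lower at an unadjusted p under 0.05, where 9.7% and 11.7% of all genes were. After deletion 2 were higher and 2 lower at that p (6.58% and 7.72% of genes). DESeq2's Wald test called 1 in WT-Topot against Top1 cKO-Veh and 0 in the other comparisons, and edgeR's exact test called 0 in the 5 comparisons between groups. The median log2 fold change of the 66 was 0.09 with topotecan in WT cells, -0.06 with deletion and 0.01 with topotecan in Top1 cKO cells. These were close to the medians of genes at a mean of 1 CPM or more. Of the Pol II subunits, 9 of 12 genes had a positive value with topotecan in WT cells (median 0.32) and 8 of 12 with deletion (median 0.28), and 1 and 2 of them had an unadjusted p under 0.05.

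With the block, 1 of the 66 was called higher and 0 lower in WT-Topot against WT-Veh (5.64% and 8.7% of all genes), 1 higher and 1 lower after deletion (4.54% and 5.15%), 2 higher and 2 lower in Top1 cKO-Topot against WT-Veh (5.83% and 7.01%), and 3 higher and 1 lower in WT-Topot against Top1 cKO-Veh (5.11% and 8.38%). The list thus gave no larger share of calls than genes at large in any of these comparisons, and the genes below are described singly. Polr2m, which encodes a subunit that associates with Pol II, was at 279, 284 and 277 CPM in WT-Veh and 400.1, 385 and 385 in WT-Topot. The Top1 cKO libraries had 364, 380 and 479 with vehicle and 399, 388 and 410.1 with topotecan. It was the 1 gene of the list called in WT-Topot against WT-Veh (0.48, SE 0.114, adjusted p = 0.00087 with the block and 0.117 without), and it was called after deletion as well (0.53, SE 0.111, adjusted p = 8.28e-05 and 0.223) and in Top1 cKO-Topot against WT-Veh (0.53, adjusted p = 0.00103 and 0.0839). Its WT-Veh libraries were below all 9 others (12.9%, 9.58% and 12.1% of all genes were higher without overlap in the 3 comparisons with WT-Veh). Polr2m forms read-through transcripts with its neighbour, and reads may be shared between them.

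Supt6 encodes SPT6, a histone chaperone that travels with elongating Pol II. It was at 135, 149 and 70.3 CPM in WT-Veh and 133, 155 and 103 in WT-Topot. In Top1 cKO cells the values were 73.9, 83.1 and 41.1 with vehicle and 59.0, 79.7 and 37.2 with topotecan. Within same-number libraries it was lower with CRE than without, with or without topotecan, and it had the replicate order of Polr2a in each group. Deletion gave -0.83 (SE 0.148, adjusted p = 1.18e-06 with the block and 0.28 without), and WT-Topot was above Top1 cKO-Veh by 0.99 (SE 0.133, adjusted p = 4.07e-07 with the block and 0.029 without). Top1 cKO-Topot was at -0.99 relative to WT-Veh (adjusted p = 8.54e-06 with the block and 0.0497 without). Topotecan in WT cells gave 0.18 with the block (SE 0.140, adjusted p = 0.672).

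Nelfe, a subunit of the pausing factor NELF, was at 21.1, 12.7 and 15.0 CPM in WT-Veh and at 6.37, 6.64 and 5.68 CPM in Top1 cKO-Topot, where it was lower by the block fit (-1.33, SE 0.304, adjusted p = 0.00177, and 0.0353 without the block). WT-Topot and Top1 cKO-Veh were at 5.995 to 9.73 and 6.51 to 12.9 CPM, both overlapping Top1 cKO-Topot, and Top1 cKO-Veh also overlapping WT-Veh. Supt5, the large subunit of DSIF, was at 118 to 158 CPM in WT-Topot and at 77.2 to 105 in Top1 cKO-Veh (0.64 with the block, adjusted p = 0.000123, and 0.0768 without). Tceb3, the active subunit of Elongin, was higher in Top1 cKO-Topot (69.1 to 87.3 CPM) than in WT-Veh (44.9 to 57.9 CPM; 0.66 with the block, adjusted p = 0.00362, and 0.0978 without). In WT-Topot against Top1 cKO-Veh, Ctr9 of the PAF1 complex was higher by 0.55 and the Pol II subunit gene Polr2e lower by the block fit, at -0.68 (adjusted p = 0.00525 and 0.00737 with the block, 0.139 and 0.123 without). Among the further genes, the roles super elongation complex, 7SK snRNP, other kinases and phosphatases of the Pol II tail, and termination had no call in any comparison in either fit.

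**Figure D5:**
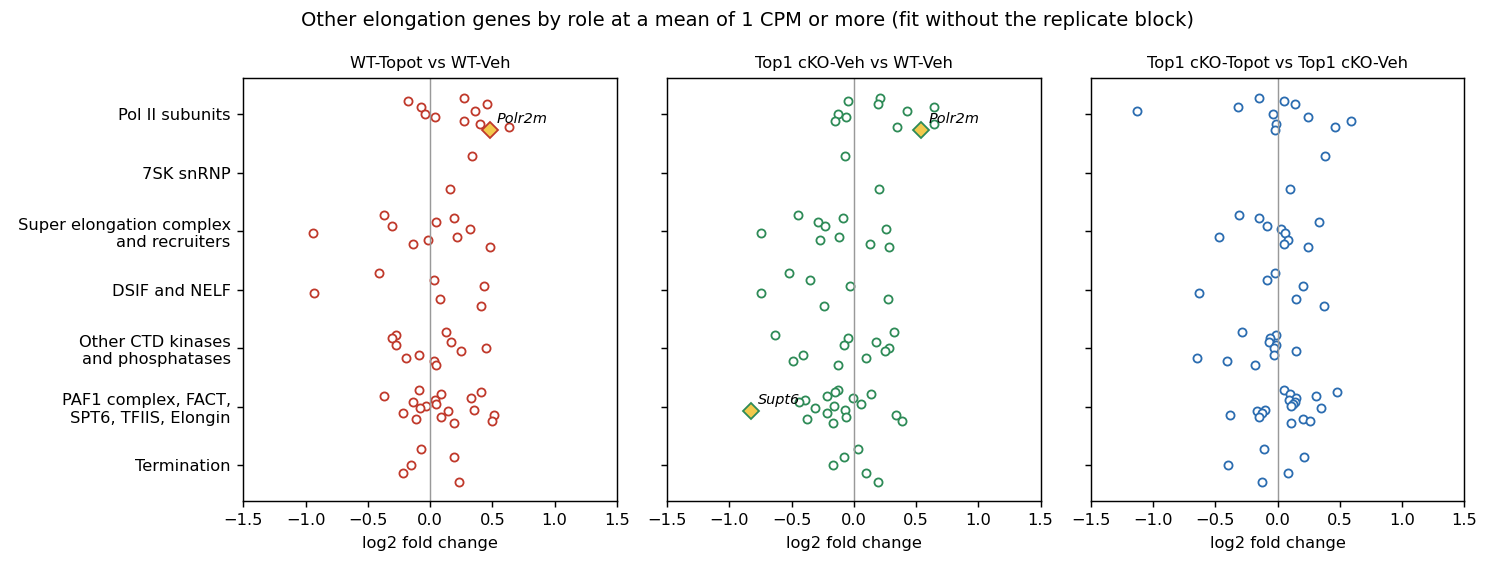
Log2 fold changes (horizontal axes, fit without the replicate block, n = 3 libraries per group) of the 63 further elongation genes at a mean of 1 CPM or more, by role, in 3 comparisons. Each point is 1 gene, and yellow diamonds mark genes past an adjusted p of 0.01 with the block. Polr2m is marked in the left panel, Polr2m and Supt6 in the middle panel and no gene in the right panel.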

How the data were processed

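RNA-seq libraries of 12 mouse cortical neuron cultures were analysed, 3 per group. Groups and replicate numbers came from the sample labels. The authors aligned the reads with TopHat to mm9 and deposited a table of raw counts per gene symbol over RefSeq exons, not normalized. The counting program and its use of strand are not given in the sources used here. The members and lists were chosen with earlier results of these data known. Levels are CPM of the TMM-adjusted library. For a pair of groups, their 6 libraries were fitted with edgeR 4.0.16 (R 4.3.3; glmQLFit, glmQLFTest, TMM, no filter), and the interaction on all 12, with Benjamini-Hochberg adjustment over 23893 genes and an FDR of 0.01. All 9 members, Top1, further elongation genes past the threshold (up to 10 per comparison with the block) and the 3 genes most like each called member were named. Background percentages count genes at a mean of 1 CPM or more.

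Whether replicate numbers pair the libraries was checked on deviations of 13720 genes from group means: r was 0.261 to 0.485 over 18 same-number pairs and -0.384 to -0.0494 over 36 others, so a block on the number was fitted too. Deviations cancel out within a group, so positive values in same-number pairs force negative ones among the others. The 36 values are therefore no separate support for the pairing. The study gives 3 cultures per group for its RNA-seq, and what a replicate number stands for is not stated. Counts of replicates differed by more than sampling noise (dispersion index 6.44 to 10.9). The depth was 1730164 to 4583777 counts per library. Alternatives were DESeq2 1.42.0 (Wald), edgeR's exact test, size factors or library size alone for scaling, filterByExpr, an FDR of 0.1, 1 fit over all libraries, the block and leaving out each library. The quasi-likelihood test was tried, with and without the block, on counts simulated for WT-Topot and WT-Veh. These counts held no deviations shared by replicate number, so they do not check the block where such deviations occur. Positions are from GENCODE vM1 (NCBIM37), to which 21013 symbols matched directly, 1067 by synonym and 1813 not. Copies are other loci matching a transcript over at least 200 bases at 90% identity or more (blastn 2.17.0). Promoters are from the RefSeq table of assembly GRCm38.p6.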

Additional observations from a re-analysis of the deposited data

Results flagged for a closer look

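The effect of topotecan on Sub1 differed between the genotypes in the fit with the replicate block: Top1 cKO minus WT was -0.94 on the log2 scale (SE 0.148, adjusted p = 1.03e-05 by edgeR's quasi-likelihood test). Without the block the value was also -0.94 (SE 0.302) and the adjusted p 0.195. The same-number log2 ratios were 1.09, 1.02 and 0.85 in WT cells and 0.03, 0.31 and -0.21 in Top1 cKO cells, and Sub1 was already at 319 to 547 CPM in Top1 cKO-Veh. In 17 alternatives the value was between -1.12 and -0.75 and it was called in 1, the block, with adjusted p from 1.03e-05 to 0.473.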

How the results depend on the processing

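Each library held few enough counts that Larp7 (8 to 35 counts) allowed only wide intervals, and 3 libraries per group limited every test. With the replicate block the number of the 9 genes called went from 2 to 4 in WT-Topot against WT-Veh, from 1 to 3 in Top1 cKO-Veh against WT-Veh, from 0 to 2 in Top1 cKO-Topot against Top1 cKO-Veh, from 0 to 1 in WT-Topot against Top1 cKO-Veh and from 0 to 1 for the interaction. Of the further elongation genes, the block called 1 in WT-Topot, 2 after deletion alone and 4 in Top1 cKO-Topot against WT-Veh, and 4 between WT-Topot and Top1 cKO-Veh, each from 0 and out of 66, no larger a share than that of all genes called with the block (4.54 to 5.83% higher and 5.15 to 8.7% lower). With genes kept by filterByExpr, 1 of the 9 was called with topotecan in WT cells and 0 with deletion. At an FDR of 0.1, 4 further genes were called in Top1 cKO-Topot against WT-Veh and 2 in WT-Topot against Top1 cKO-Veh, and DESeq2 called 1 in the latter. Leaving out each library in turn gave 1 to 3 of the 9 genes in WT-Topot (1 without WT-Topot replicate 3), 0 to 1 in Top1 cKO-Veh and 1 to 3 in Top1 cKO-Topot against WT-Veh, and 0 to 1 further genes in Top1 cKO-Topot against WT-Veh and in WT-Topot against Top1 cKO-Veh. Values near 0 changed sign: Ccnt1 in WT-Topot against WT-Veh was 0 with filterByExpr, and Cdk9 was 0.03 in WT-Topot against Top1 cKO-Veh and -0.04 for the interaction with library size alone, an alternative chosen after seeing the data. Library size alone moved the median of genes at a mean of 1 CPM or more in WT-Topot against WT-Veh from 0.028 to 0.108. Without single libraries the log2 fold changes ranged, in WT-Topot against WT-Veh, from -0.18 to 0.16 (Ccnt1); in Top1 cKO-Veh against WT-Veh, from -0.54 to 0.02 (Larp7) and -0.12 to 0.21 (Cdk12); in Top1 cKO-Topot against Top1 cKO-Veh, from -0.28 to 0.15 (Ccnt1), -0.33 to 0.18 (Cdk12) and -0.13 to 0.24 (Sub1); in Top1 cKO-Topot against WT-Veh, from -0.10 to 0.10 (Ccnt2) and -0.32 to 0.22 (Cdk12); in WT-Topot against Top1 cKO-Veh, from -0.15 to 0.11 (Cdk9) and -0.08 to 0.27 (Cdk12); and for the interaction, from -0.09 to 0.21 (Cdk9), -0.32 to 0.11 (Ccnt1) and -0.49 to 0.02 (Cdk12). The cause of these changes was not tested. Under the alternatives, 688 log2 fold changes kept their direction and side of the threshold, 11 passed it newly, 7 no longer passed it and 31 changed sign.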
